A study of Ramazzottius varieornatus with 48 samples.

Results

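The 100 genes described here were chosen because they stood higher in the tardigrade *Ramazzottius varieornatus* from 9 h after UVC exposure to 72 h. Of 13920 genes, 8369 had a single transcript and a mean abundance of at least 10 TPM (transcripts per 1000000 transcripts) over the 48 libraries. For each of them D was computed, the mean log2(TPM + 1) of an exposed group minus that of the non-exposed group of its time course. D had to be at least 0.5 at 9 and 12 h of the Short time course and at 12, 36, 48 and 72 h of the Long time course, which 353 genes met, or 4.22% of the 8369. The 100 with the highest minimum D over these 6 groups were taken. The rule left out 6 other genes by name.

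Animals of the strain YOKOZUNA-1 received 2.5 kJ/m2 of UVC and were then kept in the dark until RNA extraction, and libraries were made from poly(A) RNA of whole bodies. In the Short time course exposed animals were taken hourly between 1 and 6 h, then at 9 h and at 12 h. In the Long time course they were taken at 12 h, at 18 h, at 24 h and every 12 h up to 48 h, and last at 72 h. Either course had its own non-exposed animals. Each of the 16 groups had 3 biological replicates, 27 Short and 21 Long libraries in all, with 30 animals pooled in a library and the libraries chosen by RNA integrity. The non-exposed groups have no later time point than 0 h, and *Chlorella* was given as food in the Long course from 12 h on, so a difference between exposed and non-exposed animals cannot be told apart from time in culture, nor later from feeding. The libraries are of whole bodies, in which more cells of a type and more RNA per cell cannot be told apart. TPM keeps no sequencing depth, so precision was taken from the spread between the 3 libraries of a group.

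UVC is absorbed by DNA, where it joins neighbouring pyrimidine bases, and it also raises reactive oxygen species. Damaged bases are repaired by light-dependent photolyases or by excision, while oxidised proteins and lipids are met by antioxidant enzymes, proteases and the machinery that clears damaged organelles. Tardigrades such as *R. varieornatus* carry in addition heat-soluble proteins known from anhydrobiosis, the dried state in which they survive the loss of their water. Among the 100 genes, 16 had a protein name from a Swiss-Prot match listed by the study, 19 were listed without a match, and 65 were not listed. The protein names belong to other species, so the roles given below are those known there.

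Both time courses were used in choosing the members, and the values of D against the non-exposed libraries are therefore a description. The last members inside the limit were g12390.t1, g598.t1 and g8928.t1, with a minimum D of 0.952, 0.949 and 0.948. The first genes outside it were g5163.t1 (0.946), g3902.t1 (0.945), which matches the extracellular serine/threonine protein CG31145 of *Drosophila*, and g13276.t1 (0.945). The boundary thus lay among genes with nearly equal D. Members with a protein name below the 40th place, and members without a name that are described below for their level or their separation, were picked after their values were seen.

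Enzymes that act on sugars were the most frequent kind among the named members. Of 20 sugar and glycoside enzymes listed, 5 were members and 10 met the threshold at all 6 groups. This list and the others below were assembled from tables of genes the study found up-regulated in these same samples, so their direction is not independent evidence. The 5 were g4636.t1 (L-sorbosone dehydrogenase, a bacterial enzyme that oxidises a sugar derivative on the way to vitamin C), g12424.t1 and g12387.t1 (both periplasmic beta-glucosidase, a bacterial enzyme that cuts glucose from beta-linked glycosides), g9607.t1 (L-xylulose reductase, which makes the sugar alcohol xylitol in mammals) and g7591.t1 (beta-1,3-galactosyltransferase 5, which adds galactose to glycans in humans). Reads shared between similar genes are divided by the quantification, so the separate levels of the pair of beta-glucosidases are less certain.

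g4636.t1 had 402, 214 and 262 TPM at Short 1 h and 304, 307 and 369 TPM at Short 9 h, against 54.5, 51.2 and 104 TPM in Short non-exposed animals. In the Long time course it had 174, 409 and 260 TPM at 36 h and 136, 147 and 141 TPM at 72 h, against 61.6, 53.0 and 68.2 TPM in Long non-exposed animals. All 3 libraries of every exposed group but Long 24 h lay above all 3 non-exposed libraries of their time course. Its Short mean was highest at 6 h, with 475 ± 81.5 TPM (SD, n = 3), and its Long mean at 36 h, with 281 ± 119 TPM. The lowest exposed value was 3.92 TPM, in replicate 1 of Long 24 h, where the other libraries had 88.4 and 111 TPM.

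g12424.t1 had 104, 90.6 and 74.4 TPM at Short 9 h, against 23.9, 15.3 and 34.1 TPM in Short non-exposed animals, and 67.5, 60.1 and 65.8 TPM at Long 72 h, against 34.5, 26.3 and 29.1 TPM in Long non-exposed animals. The other beta-glucosidase, g12387.t1, had 127, 109 and 119 TPM at Long 36 h and 51.1, 53.4 and 64.3 TPM at Long 72 h, against 29.2, 26.6 and 26.9 TPM in Long non-exposed animals. The groups did not overlap in either gene. g9607.t1 had 117, 94.3 and 134 TPM at Short 12 h, against 41.0, 22.8 and 40.3 TPM in Short non-exposed animals. g7591.t1 had 46.7, 87.2 and 73.1 TPM at Long 12 h and 28.1, 32.3 and 31.3 TPM at Long 72 h, against 8.29, 23.8 and 0.393 TPM in Long non-exposed animals, and its lowest 72 h library was thus only slightly above the highest non-exposed one. Over all 20 sugar and glycoside enzymes the median D was 1.01 at Short 9 h and 1.08 at Long 72 h, against medians of 0.12 and -0.26 over the 8369 genes.

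A selenium-binding protein, a monooxygenase and a secreted protease also kept their libraries apart. g5332.t1, matching selenium-binding protein 2, a mouse protein that binds selenium and acetaminophen, had 254, 288 and 269 TPM at Short 9 h and 331, 247 and 279 TPM at Short 12 h, against 98.7, 93.4 and 79.9 TPM in Short non-exposed animals. It had 259, 304 and 274 TPM at Long 36 h and 185, 186 and 195 TPM at Long 72 h, against 90.5, 83.4 and 114 TPM in Long non-exposed animals. Its exposed libraries lay above the non-exposed ones in 13 of the 14 exposed groups, again all but Long 24 h, where replicate 1 had 92.4 TPM. g6002.t1 matches a flavin-containing monooxygenase of *Arabidopsis* (FMO GS-OX-like 9), a family that adds oxygen to sulfur and nitrogen atoms. It had 55.2, 33.8 and 31.4 TPM at Long 72 h, against 10.9, 12.7 and 6.41 TPM in Long non-exposed animals. g5917.t1 matches ovochymase-1, a secreted serine protease of the chymotrypsin type. It was the steadiest of the members above 0 in every non-exposed library, with D between 1.47 and 1.57 over the 6 groups, and had 147, 128 and 137 TPM at Long 72 h, against 34.7, 61.0 and 43.9 TPM in Long non-exposed animals.

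**Figure D1:**
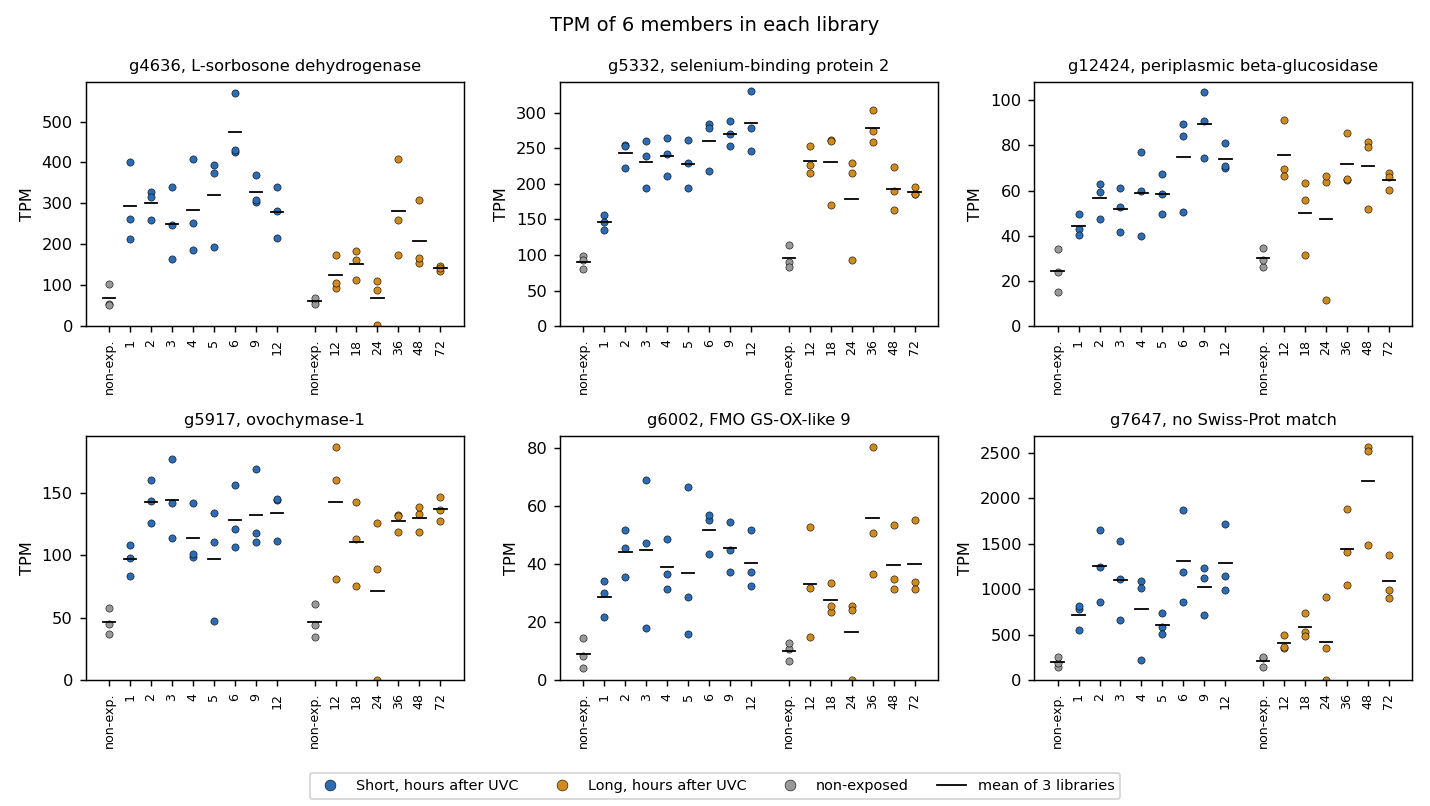
TPM (linear axes from 0) of 6 members in each library of the Short time course (blue), the Long time course (orange) and the non-exposed groups (grey), by hours after UVC exposure, with black lines at the mean of 3 libraries. Exposed libraries lie above the non-exposed ones in most groups, and replicate 1 of Long 24 h is the lowest exposed library in each of the 6 genes, for example 3.92 TPM in g4636 beside 88.4 and 111 TPM.

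Members matching proteins of membranes and vesicles, brought together here after their values were seen, were g697.t1, g13044.t1, g5667.t1 and g3267.t1, of which the first pair are on the list of membrane transporters and channels. g697.t1, matching nose resistant to fluoxetine protein 6, a *Caenorhabditis elegans* membrane protein named for the mutant's resistance to fluoxetine, had 99.9, 144 and 112 TPM at Long 36 h, against 20.3, 30.0 and 37.7 TPM in Long non-exposed animals. g13044.t1, the UNC93-like protein MFSD11 of the major facilitator family of transporters, had 31.8, 51.7 and 58.6 TPM at Long 12 h, against 18.3, 16.6 and 5.95 TPM in Long non-exposed animals. Neither gene overlapped between these groups. g5667.t1, subunit F of the V-type proton ATPase that acidifies lysosomes, had 130, 145 and 95.1 TPM at Long 48 h, against 25.9, 46.4 and 21.1 TPM in Long non-exposed animals. g3267.t1, the small GTPase Rab-35 of endocytic recycling, had 40.7, 27.6 and 74.6 TPM at Long 72 h, against 49.6, 5.44 and 23.2 TPM in Long non-exposed animals, so its groups overlapped there although its D was 1.17.

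Regulators of transcription, RNA and calcium signalling were single genes. g12827.t1, matching squid, a *Drosophila* RNA-binding protein that places and exports transcripts, had 336, 286 and 349 TPM at Short 9 h, against 142, 148 and 124 TPM in Short non-exposed animals, and 216, 187 and 291 TPM at Long 72 h, against 148, 145 and 73 TPM in Long non-exposed animals. Its exposed and non-exposed libraries did not overlap in either pair. g2004.t1, calcineurin subunit B type 2, the calcium-binding subunit of a protein phosphatase, had 119, 118 and 194 TPM at Long 12 h and 49.0, 48.4 and 79.0 TPM at Long 72 h, against 31.2, 14.7 and 16.1 TPM in Long non-exposed animals. All these exposed libraries lay above the non-exposed ones. g9928.t1 matches RPB9, a subunit of RNA polymerase II that in yeast also takes part in transcription-coupled repair. It had 41.3, 75 and 39.9 TPM at Long 36 h, against 27.2, 29.2 and 0 TPM in Long non-exposed animals, and was the only named member listed at 0 in a non-exposed library. The last named member, g6064.t1, matches the uncharacterised *C. elegans* protein ZK1073.1 and had 339, 294 and 328 TPM at Long 72 h, against 141, 67.6 and 179 TPM in Long non-exposed animals.

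The 4 most abundant members, g6113.t1, g7647.t1, g3883.t1 and g3882.t1, had no Swiss-Prot match. g6113.t1 had D between 1.07 and 1.52 over the 6 groups of the rule. All its exposed libraries lay above the non-exposed ones in 7 of 8 Short groups, but in 0 of 6 Long groups. g7647.t1 had 711, 1124 and 1232 TPM at Short 9 h, against 139, 189 and 253 TPM in Short non-exposed animals. In the Long time course it had 354, 499 and 366 TPM at 12 h and 2559, 2516 and 1482 TPM at 48 h, against 142, 237 and 257 TPM in Long non-exposed animals. The groups were apart, and at Long 72 h the 3 libraries had 995, 908 and 1375 TPM. g3883.t1 had 1675, 1146 and 1342 TPM at Short 12 h, against 283, 606 and 387 TPM in Short non-exposed animals, and 881, 777 and 1235 TPM at Long 72 h, against 149, 404 and 79.8 TPM in Long non-exposed animals. g3882.t1, the next lower number in the gene set, had 204, 196 and 517 TPM at Long 72 h, against 57.2, 37.6 and 378 TPM in Long non-exposed animals. Unlike g3883.t1, its groups overlapped at that time, since a single non-exposed library lay above 2 of the exposed ones.

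The direction of the change in D between Long 12 h and Long 72 h differed among the members. Both groups chose the members, so the values are a description, and no difference was tested. Among the 31 members above 0 in every non-exposed library, D at Long 72 h was higher than at Long 12 h in 11 and lower in 20, with a median difference of -0.15, and a median of -0.39 over the 8369 genes. In these 31 the SD of log2(TPM + 1) between the libraries of a group had a median of 0.46 at Long 12 h and 0.32 at Long 72 h. g7647.t1 had the largest positive difference, 1.42, followed by g5507.t1 with 1.25 and g8855.t1 with 0.75. The largest negative ones were -1.27 in g2004.t1 and -1.11 in g7591.t1. D ranged least in g5917.t1, g7484.t1 and g598.t1, by 0.10, 0.33 and 0.36 over the 6 groups, against a median range of 1.00 in the 31 genes.

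None of the other lists held more than 2 members. Membrane transporters and channels had 2 of 38, and proteases and inhibitors (32 listed), glutathione, thioredoxin and redox enzymes (28), short-chain and other oxidoreductases (23), signalling and transcription (21), and ribosome and RNA processing (38) had 1 each. Genes that met the threshold at all 6 groups were 6 of the transporters, 8 of the proteases, 5 of the redox enzymes, 5 of the oxidoreductases, 2 of signalling and 3 of ribosome and RNA processing. No member came from the 31 genes of ubiquitin, proteasome and autophagy, the 14 of DNA repair and replication, the 29 of mitochondrial chaperones, respiration and iron-sulfur assembly, the 30 of lipid enzymes and carriers or the 9 heat-soluble CAHS and SAHS proteins, of which 2, 0, 6, 3 and 0 met the threshold at all 6 groups. The DNA repair list reached D of 0.5 in 14 of 14 genes at Short 9 h and in 1 of 14 at Long 72 h, with median D of 1.28 and -0.50. Over the 8369 genes the shares at these times were 26.2% and 24.0%. The CAHS and SAHS list did so in 4 of 9 at Short 9 h and in 9 of 9 at Long 72 h, with median D of -0.40 and 1.46. Neither course met the rule. The muscle genes (4) and histones (8), listed as signs of other tissue and of dividing cells, gave no member either. At the last time point of each course, Short 12 h and Long 72 h, their summed TPM differed from non-exposed animals in opposite directions. At Long 12 h the muscle sum was 628 to 705 TPM and the histone sum 3607.5 to 4150.5 TPM. Both lay within the range of Long non-exposed animals, and the 2 courses share only the 12 h time point. The muscle sum was 1152 to 1772 TPM at Long 72 h, against 379 to 730 TPM in Long non-exposed animals, but 407 to 475 TPM at Short 12 h, against 592 to 691 TPM in Short non-exposed animals. The single muscle genes did not all follow their sum. At Long 72 h 0 of the 4 were called higher than in non-exposed animals and 1 was called lower (limma, adjusted p under 0.05, log2 fold change over 1). Of all transcripts 2.12% were called higher there. The histone sum was 2247 to 3275 TPM at Long 72 h, against 3265 to 4244 TPM in Long non-exposed animals, but 3894 to 4949 TPM at Short 12 h, against 1773 to 2631 TPM in Short non-exposed animals. Their part in the members' values was not tested.

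Zeros in the non-exposed libraries marked most of the members. Of the 100, 69 were listed at 0 TPM in at least 1 of the 6 non-exposed libraries, against 9.46% of the 8369 genes, and 17 were at 0 in all 3 Long non-exposed libraries. A 0 in such a table can be a transcript that the quantification missed, and members at 0 in a library could be abundant in another of its group, such as g12484.t1 with 125, 0 and 42.5 TPM in Short non-exposed animals. Replicate 2 of Short non-exposed had 43 members at 0, while the other Short non-exposed libraries had 11 and 6, and the Long non-exposed libraries had 38, 49 and 35. The share of all 8369 genes at 0 was 3.27% in that Short library and 3.37% to 5.35% in the Long ones. Some exposed libraries with similar shares had fewer members at 0. These were 20 in Long 12 h replicate 2 (5.37%), 7 in Long 12 h replicate 3 (3.55%) and 18 in Long 18 h replicate 1 (4.33%). The rule favours genes that are low in the non-exposed libraries, so nothing is read from this contrast. Since D is set against the non-exposed libraries, low values there raise D, and the part of such zeros in D was not tested. The 31 members above 0 in all 6 libraries had a median mean abundance of 73.2 TPM and the 69 others 27.7 TPM, with 44.7 TPM over all 8369 genes.

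**Figure D2:**
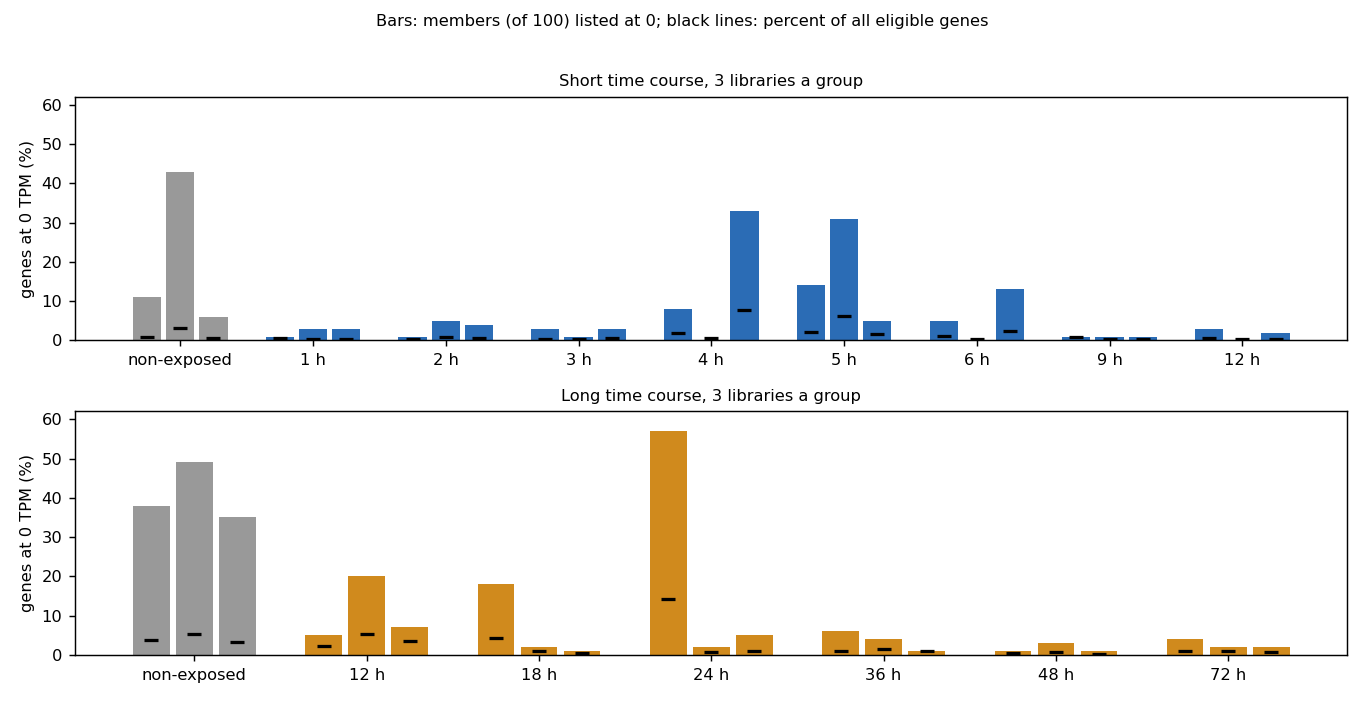
Members listed at 0 TPM in each library (bars, a percent of the 100 members) beside the percent of all 8369 genes at 0 (black lines), for the Short and the Long time course with non-exposed animals in grey. Long 24 h replicate 1 stands highest, with 57 members and 14.3% of all genes at 0, and the 3 Long non-exposed libraries and replicate 2 of Short non-exposed follow among the rest with 35 to 49 members.

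The top of the ranking was made up almost wholly of these genes. Of the 20 members with the highest minimum D, 19 were at 0 in a non-exposed library, and of the last 20 it was 5. The first place, with a minimum D of 2.67, was held by g2750.t1, which had 154, 2.35 and 33.8 TPM at Long 12 h and 28.7, 31.7 and 33.3 TPM at Long 72 h, against 0, 0 and 2.66 TPM in Long non-exposed animals. In the Short time course it had 19, 13.1 and 62.5 TPM at 9 h, against 2.82, 0 and 17.4 TPM in Short non-exposed animals. The groups overlapped at Short 9 h and Long 12 h and were apart at Long 72 h. g8726.t1, in the second place, had 33.3, 34.7 and 20.3 TPM at Long 72 h, against 0.469, 0 and 3.44 TPM in Long non-exposed animals.

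Other members at the top varied as much among exposed animals. g2796.t1 had 0, 0 and 98.6 TPM at Long 12 h and 1116, 30.8 and 0 TPM at Long 24 h, against 0 TPM in all 3 Long non-exposed libraries. g12484.t1 had 62.6, 129 and 0 TPM at Long 12 h, against 106, 0 and 0 TPM in Long non-exposed animals. Exposed and non-exposed libraries of both genes overlapped, and in g12484.t1 the highest non-exposed library was above 2 of the 3 exposed ones. g8092.t1 and g8235.t1 were at 0 in all 6 non-exposed libraries, and had 1.17, 12.0 and 29.6 TPM, and 2.99, 0 and 8.56 TPM, at Long 72 h. The rest of the first 15 were g1400.t1, described below, g6324.t1, g2244.t1, g12552.t1, g6266.t1, g3115.t1, g13730.t1, g3156.t1, g10024.t1 and g11258.t1. g3156.t1 was the only one of the 15 above 0 in every non-exposed library, with 28.6, 34.4 and 39.3 TPM at Long 72 h, against 1.76, 1.13 and 15.6 TPM in Long non-exposed animals.

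Separation of single libraries gave a different order. In 20 members every library of all 6 groups lay above every non-exposed library of its time course, which held for 0.848% of the 8369 genes and 60 of the 353 candidates. Since the rule used these libraries, nothing is read from the difference. These 20 members included 16 of the 31 above 0 in every non-exposed library and 13 of the 16 with a protein name, and ranked from 2 to 97. The 13 were g7591.t1, g6002.t1, g5917.t1, g9607.t1, g697.t1, g12424.t1, g13044.t1, g2004.t1, g6064.t1, g5332.t1, g4636.t1, g12827.t1 and g12387.t1.

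Counts of members past a limma threshold against the non-exposed libraries (adjusted p under 0.05 after Benjamini-Hochberg adjustment over 12088 transcripts, log2 fold change over 1) are given as a description only. The non-exposed libraries chose the members, so the choice itself favours members in these counts and nothing is read from them. In the Short course these counts, with the share of all transcripts, were 2 at 1 h (0.223%), 10 at 2 h (0.513%), 7 at 3 h (0.314%), 11 at 4 h (0.753%), 14 at 5 h (1.22%), 16 at 6 h (1.41%), 25 at 9 h (2.31%) and 24 at 12 h (1.75%). In the Long course they were 8 at 12 h (0.546%), 7 at 18 h (0.521%), 4 at 24 h (0.149%), 7 at 36 h (0.811%), 10 at 48 h (1.4%) and 16 at 72 h (2.12%). At any of the 14 groups the count was 45 (6.17%).

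D at the time points that the rule skipped was set against the same non-exposed libraries that chose the members, so its size and onset cannot be told apart from that choice and the values are a description. At Short 1 h the median D was 1.14 over the 100 members, with 0.81 in the 31 above 0 in every non-exposed library and -0.32 over the 8369 genes. D was at least 0.5 in 80 members at 1 h (11.6% of the 8369 genes), 92 at 2 h (15.1%) and 87 at 3 h (13.4%) of the Short course. It was so in 69 members at 4 h (21.2%), 70 at 5 h (21.7%) and 87 at 6 h (20%) of that course, and in 96 at 18 h (28.6%) and 70 at 24 h (22.0%) of the Long course. The lower counts at 4, 5 and 24 h fell in the groups that held Short 4 h replicate 3, Short 5 h replicate 2 and Long 24 h replicate 1, with 33, 31 and 57 members at 0. Without those libraries, which were picked after seeing the data, the counts were 85 (22.4% of the 8369 genes), 80 (21.1%) and 94 (29.5%).

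**Figure D3:**
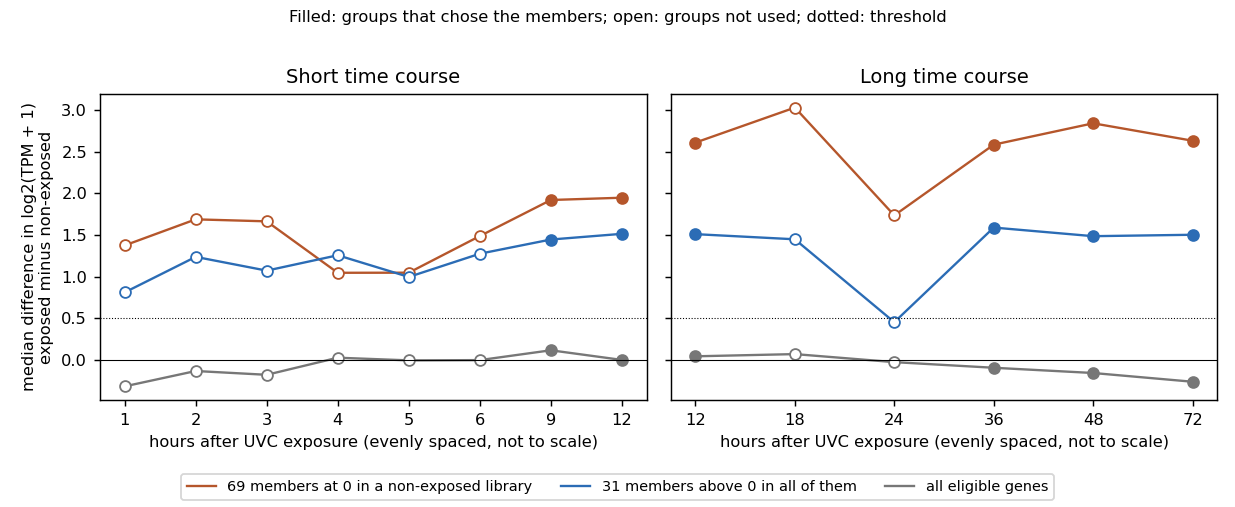
Median difference in log2(TPM + 1) between exposed and non-exposed animals at each time point for the 69 members listed at 0 in a non-exposed library, the 31 members above 0 in all of them, and all 8369 eligible genes (filled points, groups that chose the members; open points, groups not used). The 31 members lie between 0.81 and 1.59 at every time point except Long 24 h, where the median is 0.45, or 1.32 without replicate 1.

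Libraries that did not enter D allowed tests that use none of the values of the rule's contrast, although the minimum mean of 10 TPM was taken over all 48 libraries. Short 4, 5 and 6 h were compared with Short 1, 2 and 3 h in one fit of these 18 libraries. By limma with Benjamini-Hochberg adjustment over 12088 transcripts, 7 members were higher at 4 to 6 h and 1 was lower at an adjusted p under 0.05, beside 9.85% and 3.04% of all transcripts. The share of members called was therefore at or below that of all transcripts. The median difference was -0.21 over the members and 0.09 over all transcripts. It was 0.12 in the 31 members above 0 in every non-exposed library and -0.41 in the 69 others, and without Short 4 h replicate 3 and Short 5 h replicate 2, left out after seeing the data, it was 0.05 over the 100.

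g2186.t1, without a Swiss-Prot match, had the clearest early rise. It had 36.4, 60.9 and 29.1 TPM at 4 h, 100, 60.9 and 80.4 TPM at 5 h and 72.3, 118 and 67.2 TPM at 6 h, against 10.9, 12.6 and 8.90 TPM at 1 h, 43.3, 34.3 and 20.4 TPM at 2 h and 18.7, 30.0 and 18.7 TPM at 3 h. The libraries at 5 and 6 h all lay above those at 1 to 3 h, while those at 4 h overlapped them. The log2 difference was 1.67 ± 0.21 (SE; limma, adjusted p = 0.000729). Between 6 and 1 h it was 2.85 ± 0.36 (adjusted p = 0.00183 by limma), and by Short 12 h the gene had 175, 103 and 138 TPM. At Long 72 h it had 25.0, 34.5 and 39.5 TPM, against 23.1, 1.13 and 0 TPM in Long non-exposed animals.

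g1400.t1, also without a match, had its largest step of the Short course between 4 and 5 h. It had 74.9, 58.7 and 57.2 TPM at 5 h and 68.0, 44.7 and 79.4 TPM at 6 h, against 15.1, 11 and 0.444 TPM at 4 h. It was lowest at 1 h, with 2.48, 5.29 and 2.89 TPM, which is below the 7.29, 13.6 and 14.1 TPM of Short non-exposed animals. The log2 difference between 4 to 6 h and 1 to 3 h was 1.99 ± 0.46 (SE; limma, adjusted p = 0.0142) and that between 6 and 1 h 3.85 ± 0.79 (limma, adjusted p = 0.0279). The second call was lost when any 1 of the 6 libraries at 1 and 6 h was left out. In the Long time course the gene had 36.7, 43.6 and 27.4 TPM at 12 h and 1.23, 18.8 and 7.04 TPM at 72 h, against 1.09, 0 and 0 TPM in Long non-exposed animals.

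Rab-35 (g3267.t1) had 97.9, 87.8 and 134 TPM at 4 h, against 42.5, 38.5 and 50 TPM at 3 h, and all 9 libraries at 4 to 6 h were above the 9 at 1 to 3 h. Its log2 difference between these times was 1.00 ± 0.16 (SE; limma, adjusted p = 0.00291). Squid (g12827.t1) was higher by 0.54 ± 0.11 (limma, adjusted p = 0.00964) and g1926.t1 by 1.25 ± 0.32 (limma, adjusted p = 0.0208). g3883.t1 was higher by 0.55 ± 0.16 (limma, adjusted p = 0.0383) and calcineurin subunit B (g2004.t1) by 0.64 ± 0.20 (limma, adjusted p = 0.0483). Each of the last 2 calls was lost in 14 of the 18 fits that left out 1 library, and under median scaling. That of g2004.t1 was also lost with the replicate block, without the filter on low values and under quantile normalization. Squid also lost its call under median scaling, with a log2 difference of 0.37, and g1926.t1 under quantile normalization (limma, adjusted p = 0.0599).

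g5723.t1, without a match, was lower at the later times. It had 23.2, 27.4 and 11.1 TPM at 6 h, against 54.2, 77.1 and 56.3 TPM at 1 h, with a log2 difference between 4 to 6 h and 1 to 3 h of -1.15 ± 0.23 (SE; limma, adjusted p = 0.00746). At 9 h it had 74.7, 63.1 and 56.4 TPM, and in Short non-exposed animals 10.3, 32.3 and 44.8 TPM. The libraries at 6 h thus lay within the non-exposed range while those at 1, 2, 3, 9 and 12 h lay above it. The lowest differences between 4 to 6 h and 1 to 3 h that were not called were -2.11 in g13355.t1, -2.0 in g2244.t1 and -1.97 in g13730.t1, with adjusted p of 0.20, 0.061 and 0.12 by limma, each in genes listed at 0 in non-exposed libraries.

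**Figure D4:**
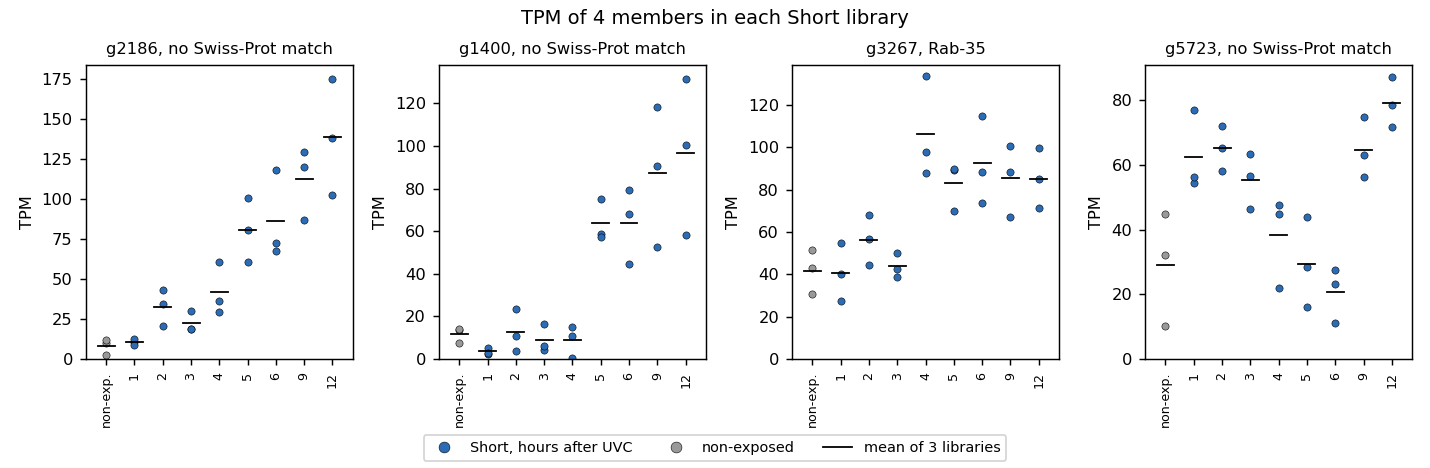
TPM (linear axes from 0) of g2186, g1400, g3267 (Rab-35) and g5723 in each library of the Short time course, in blue by hours after UVC exposure, with non-exposed animals in grey and black lines at the mean of 3 libraries. g2186 and g1400 reach means of 139 and 96.9 TPM at 12 h, g3267 steps up at 4 h to 106 TPM, and g5723 dips to 20.5 TPM at 6 h between 62.5 TPM at 1 h and 79.1 TPM at 12 h.

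Between Short 6 h and 1 h, in the same fit, 6 members were higher and 1 was lower by limma with Benjamini-Hochberg adjustment, beside 1.49% and 0.521% of all transcripts, or 2.01% in either direction. Besides g2186.t1 and g1400.t1 these were g3883.t1 (log2 difference 1.21), Rab-35 (1.19), squid (0.88) and selenium-binding protein 2 (g5332.t1), which had 284, 278 and 218 TPM at 6 h, against 156, 146 and 135 TPM at 1 h, with a log2 difference of 0.82 ± 0.17 (limma, adjusted p = 0.0253). Its libraries at 6 h all lay above those at 1 h. g5723.t1 was lower by -1.63 ± 0.39 (SE; limma, adjusted p = 0.046). The median difference was 0.29 over the members and 0.26 over all transcripts. Median scaling subtracts from each library the median deviation of its transcripts from their mean over the libraries of the fit. With it the median difference was 0.0024 over the members and -0.03 over all transcripts. The calls of g3883.t1, Rab-35, squid and g5332.t1 were then lost. The call of g5723.t1 was made in 3 of the 18 fits that left out 1 library, and it and that of Rab-35 were lost with the replicate block. g8092.t1 (2.96) had a large difference without a call, as had g7664.t1 (-2.36) and g3689.t1 (-1.65). With each library left out in turn the count of members called was between 1 and 8, and g2186.t1 alone was called each time.

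None of the 20 sugar and glycoside enzymes was called between 4 to 6 h and 1 to 3 h or between 6 and 1 h by limma at an adjusted p under 0.05, with median log2 differences of 0.04 and 0.31. Among the members on this list, every Short 1 h library of g4636.t1, g12424.t1 and g7591.t1 lay above every Short non-exposed library. At 1 h this held for 6.3% of all eligible genes. At Short 2 h it held for these members and for g9607.t1 and g12387.t1, and for 8.08% of all eligible genes. At Short 4 h and 5 h g9607.t1 and g12387.t1 overlapped the non-exposed libraries. Those non-exposed libraries chose the members, so no onset is read from these values. By the same test, which called 9.85% of all transcripts higher and 3.04% lower, the DNA repair and replication list had 10 of 14 genes called higher and none lower at 4 to 6 h over 1 to 3 h, and that of ubiquitin, proteasome and autophagy 22 of 31 and none lower. Of all calls in that comparison 76.4% were higher, but 38.9% under median scaling. These lists came from genes the study found up-regulated in these same samples, so the list counts are a description.

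Between Long 24 and 18 h no transcript of the 12088 was called by limma with Benjamini-Hochberg adjustment (0% of all transcripts). At an unadjusted p under 0.05 there were 502 transcripts and 2 members, both lower. The median difference was -1.35 over the members and -0.07 over all transcripts, with 80 members below 0. The lowest values were -3.57 in g3882.t1, -3.52 in g9928.t1 and -3.43 in g11980.t1, and the highest were 3.55 in g5294.t1, 3.03 in g5696.t1 and 2.68 in g5016.t1. g3882.t1 had 1.88, 162 and 99.8 TPM at 24 h, against 362, 406 and 535 TPM at 18 h. The value of 1.88 TPM came from replicate 1 of Long 24 h, which listed 14.3% of the 8369 genes at 0, and without it the median difference over the members was -0.18.

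**Figure D5:**
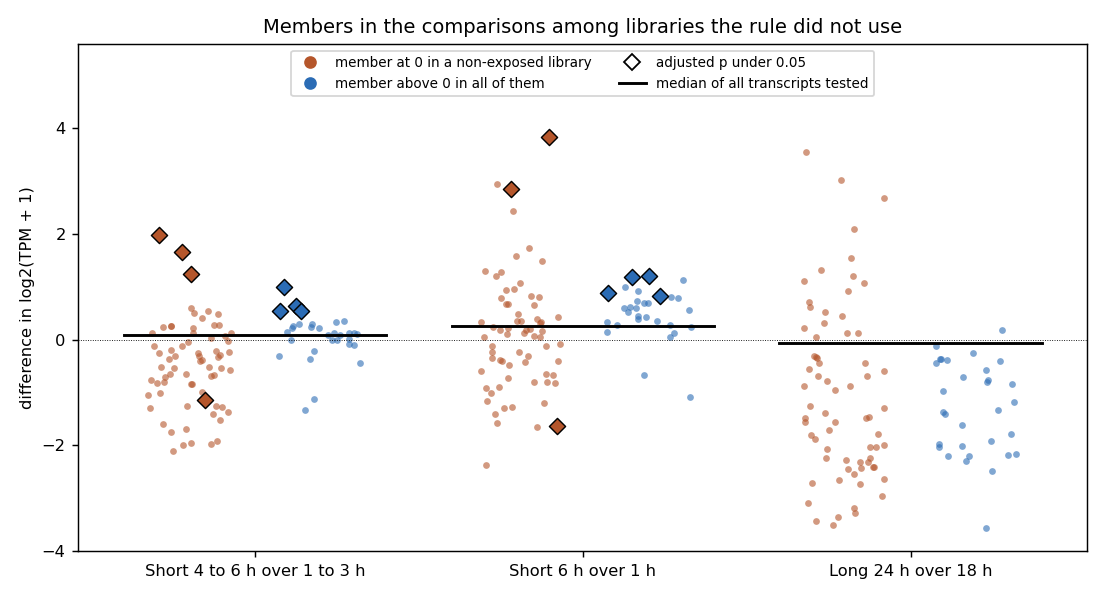
Difference in log2(TPM + 1) of each member (points; blue, above 0 in every non-exposed library; brown, listed at 0 in at least 1) in the 3 comparisons among libraries that did not enter D, with diamonds at an adjusted p under 0.05 (limma) and black lines at the median of all transcripts tested. Called members number 8 for Short 4 to 6 h over 1 to 3 h (12.9% of all transcripts), 7 for Short 6 h over 1 h (2.01%) and 0 for Long 24 h over 18 h (0%). In that last comparison 80 of the 100 points lie below 0, with Long 24 h replicate 1, which has 57 members at 0, included.

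The spread between libraries bears on all these values. Averaged over the 8 groups that did not enter D, the SD of log2(TPM + 1) within a group had a median of 1.12 in the members, against 0.47 over the 8369 genes. It was 0.68 in the 31 members above 0 in every non-exposed library and 1.32 in the 69 others. The members were also lower in Long than in Short non-exposed animals in 82.0% of cases, with a median log2 difference of -1.0, against 43.5% and 0.12 over the 8369 genes, and in 74.2% of the 31, with a median of -0.38. The rule used these non-exposed libraries and favours genes that are low in them, so nothing is read from this contrast.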

How the data were processed

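The authors quantified 75-base single-end reads with kallisto against their gene set and deposited TPM per transcript and library, each library summing to 1000000. Replicates were not pooled. The BWA and DESeq2 counts behind their own gene lists were not used here. log2(TPM + 1) was fitted with limma 3.58.1 in R 4.3.3 (eBayes with a trend, Benjamini-Hochberg over 12088 transcripts whose TPM averaged 1 or more), in place of DESeq2, which needs counts. Folds on this scale understate changes of low genes. Tables were handled in Python 3.11.15 with pandas 2.3.3 and numpy 2.4.6, and drawn with matplotlib 3.10.9. The members, lists and tests were chosen with earlier results of these data known. Named genes are the first 15 members, protein-named members among the first 40, the 3 largest and smallest differences in each independent comparison, the boundary genes, and others picked after their values were seen. Alternatives were other pseudocounts, filters, scalings, a replicate block, fits of other groups, group medians, sums over isoforms, and each library left out. In simulated data with 200 transcripts changed by 2 on the log2 scale, 174 were called for Short 4 to 6 h over 1 to 3 h among 12077 transcripts, 115 for Short 6 h over 1 h among 12077, and 37 for Long 24 h over 18 h among 11916. The simulated noise was normal with the same SD in every group, and only transcripts above a minimum level were changed. No simulated library had excess zeros like Long 24 h replicate 1. No genome was used, so no positions or sequences are given.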

Additional observations from a re-analysis of the deposited data

How the results depend on the processing

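The members depended most on how the non-exposed libraries were read. With group medians in place of means 58 of the 100 were kept, with each library left out in turn 58 to 98, with the fewest without replicate 2 of Short non-exposed, and 31 were above 0 in every non-exposed library, a condition added after seeing the data. Other pseudocounts, scalings and sums over isoforms kept 71 to 99. Of the 8 members called for Short 4 to 6 h over 1 to 3 h, 5 were called under median scaling and 5 with an absolute log2 difference over 1, and 6 to 11 with a library left out. For all 1558 transcripts called the counts were 920 under median scaling, 595 under quantile normalization and 335 with the log2 threshold, and 955 to 1824 with a library left out. Calls higher were 76.4% of them, 38.9% under median scaling, 46.1% under quantile normalization and 60% with the log2 threshold. Of the 7 members called for Short 6 h over 1 h, 3 were called under median scaling, 4 under quantile normalization and 2 in a fit of only those groups, and 1 to 8 with a library left out. For all 243 transcripts called the counts were 73 under quantile normalization, 481 with all groups of the course, 43 with only those groups and 758 without both Short 4 h replicate 3 and Short 5 h replicate 2, an alternative added after seeing the data, and 43 to 401 with a library left out. Calls higher were 74.1%, 24.9% under median scaling, 57.5% under quantile normalization and 60.5% with only those groups. Median scaling moved the median over all transcripts to -0.08, against 0.09, for Short 4 to 6 h over 1 to 3 h and to -0.03, against 0.26, for Short 6 h over 1 h. Members called higher than non-exposed animals, a description since these libraries chose the members, were 8 at Short 1 h under median scaling, against 2, and 2 at Long 24 h with the replicate block, against 4. The cause of these shifts was not tested. Replicate numbers were not taken to pair the libraries: among the 45 same-numbered pairs at Short 1 to 6 h the mean correlation of deviations was -0.00088, and 0 of 6 libraries at 1 and 6 h correlated best with their own number, while at Long 18 and 24 h the 3 same-numbered correlations were 0.0071 to 0.11, not all over 0.1, and 3 of 6 libraries did. With the replicate block 1383 transcripts were called for Short 4 to 6 h over 1 to 3 h and 210 for Short 6 h over 1 h. No transcript was called for Long 24 h over 18 h under any alternative, in a comparison where the simulation recovered 37 of 200. That simulation had no library with excess zeros like Long 24 h replicate 1, so it does not give the power for the members.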
